A study of Mus musculus with 18 samples.

Results

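The genes described here are 3 Notch receptors and 7 genes of Notch signalling or its response in thymocyte progenitors: *Notch1*, *Notch2*, *Notch3*, *Rbpj*, *Lfng*, *Hes1*, *Hey1*, *Heyl*, *Nrarp* and *Dtx1*. Members were all probe sets whose annotated symbol is one of these 10 genes, which gave 18 of the 22626 probe sets of the array, and 0 of the 18 carried the symbol of another gene as well. Messenger RNA of sorted mouse thymocytes was measured on Affymetrix mouse genome arrays, with 3 arrays for each of 6 groups and 18 arrays in all. The fetal groups were ETP, DN2 and DN3 cells of C57BL/6 fetuses labelled E14.5, whereas the methods name a later fetal day. The adult groups were the same stages of female C57BL/6 mice aged 4 to 6 weeks. None of the groups carried a mutation or a treatment. All cells were lineage negative, and ETP (early thymic progenitors) were CD44+ CD25- c-kit+, DN2 cells CD44+ CD25+ and DN3 cells CD44- CD25+. Each sample held RNA of 80000 cells, and per the methods the material of 2 fetal or 4 adult sorts was pooled for an array. The labels call the arrays of a group biological replicates and the methods call them technical, so the spread behind each p-value, that between arrays, may be a technical one.

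Notch receptors are membrane proteins that are cut when a ligand on a neighbouring cell binds them. The freed intracellular part enters the nucleus, joins the DNA-binding protein encoded by *Rbpj*, and switches on genes such as *Hes1*, *Heyl*, *Nrarp* and *Dtx1*. In the thymus, epithelial cells offer the ligand, Notch1 on incoming progenitors is required for the T cell fate, and *Notch3* is itself a target of the pathway in DN3 cells.

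The deposited values are log2 intensities from which the median over the 18 arrays had been taken for each probe set. A value of 0 therefore stands for the middle array of that probe set, and values can be compared between arrays but not between probe sets. A difference was called where its adjusted p (limma, Benjamini-Hochberg over all 22626 probe sets) was under 0.05 and it reached 1.8-fold, which is 0.85 log2. Differences are given with the SE of the fit to all 18 arrays. Because bulk RNA was measured, more cells of a kind and more RNA per cell cannot be told apart.

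The stretch around the transcription start is shown for 3 members with large differences, *Nrarp*, *Dtx1* and *Notch3*, and for *Lfng*, whose window holds both motifs searched. Each window runs from 250 bases before to 50 bases after a start in RefSeq on GRCm38.p6, which had an entry for 7 of the 10 members (*Notch1*, *Notch2*, *Notch3*, *Rbpj*, *Lfng*, *Nrarp* and *Dtx1*). Capitals mark the core of the Rbpj binding site, TGGGAA on either strand (TTCCCA on the other), and CACGTG, an E-box of the kind that Hes and Hey repressors can bind.
Nrarp (chr2:25180508-25180807, plus strand): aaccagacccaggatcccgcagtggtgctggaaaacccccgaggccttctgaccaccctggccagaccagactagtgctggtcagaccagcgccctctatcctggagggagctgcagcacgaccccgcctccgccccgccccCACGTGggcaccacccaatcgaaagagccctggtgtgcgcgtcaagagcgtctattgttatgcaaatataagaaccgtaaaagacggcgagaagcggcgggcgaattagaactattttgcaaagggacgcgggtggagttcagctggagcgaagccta
Dtx1 (chr5:120711620-120711919, minus strand): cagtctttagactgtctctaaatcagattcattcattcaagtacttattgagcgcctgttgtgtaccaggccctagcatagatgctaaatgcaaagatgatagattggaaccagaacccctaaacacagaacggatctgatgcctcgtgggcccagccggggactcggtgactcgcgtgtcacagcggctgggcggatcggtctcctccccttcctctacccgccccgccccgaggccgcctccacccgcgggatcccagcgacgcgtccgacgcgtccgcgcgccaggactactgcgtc
Notch3 (chr17:32166841-32167140, minus strand): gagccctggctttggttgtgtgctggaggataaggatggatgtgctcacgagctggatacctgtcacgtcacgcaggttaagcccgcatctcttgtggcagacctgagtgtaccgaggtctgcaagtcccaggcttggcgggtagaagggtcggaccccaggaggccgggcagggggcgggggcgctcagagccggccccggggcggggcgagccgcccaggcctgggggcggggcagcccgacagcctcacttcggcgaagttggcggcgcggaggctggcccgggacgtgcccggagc
Lfng (chr5:140607091-140607390, plus strand): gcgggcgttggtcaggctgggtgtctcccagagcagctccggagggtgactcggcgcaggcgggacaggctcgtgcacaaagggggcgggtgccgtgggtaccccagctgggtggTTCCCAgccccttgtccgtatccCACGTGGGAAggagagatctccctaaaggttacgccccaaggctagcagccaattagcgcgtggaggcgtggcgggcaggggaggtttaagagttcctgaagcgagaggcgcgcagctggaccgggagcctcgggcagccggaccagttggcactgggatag
The Nrarp window held CACGTG at position -108 from the start. The Lfng window held the core at -135 and -108, and its CACGTG at -112 overlapped the second of these. Windows of *Rbpj* itself, which overlap, held the core at -149 and -65 from one start and at -205 from another. The matches at -65 and -205 are the same site. Neither motif was in the windows of *Notch1*, *Notch2*, *Notch3* and *Dtx1*. Among 32851 mouse windows of this length 25.6% held the core and 7.15% held CACGTG, so that a match is a description of these letters only.

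Before the results, some arrays have to be named. In adult DN3, the values of *Xist*, which is transcribed from the inactive X chromosome, were 1.59, -11.28 and -11.34 log2, so 2 of the 3 arrays went against the female label. *Cd44*, the gene of a sorting marker that DN3 cells lack, stood at -8.38, -6.91 and -6.89 log2 in fetal DN3 and at -7.97, -7.84 and -0.86 log2 in adult DN3, so that adult DN3 replicate 3 lay with DN2 cells in this gene. The embryonic globin gene *Hbb-y* was at 5.31, 0.12 and -0.16 log2 in replicate 1 of fetal ETP, DN2 and DN3, and at 9.96 to 11.22 log2 in the other fetal arrays. *Il2ra*, which encodes CD25, and *Ptcra*, a DN3 gene, followed the sorted stages at both ages. For some of the results that rest on adult DN3, the value is also given without replicate 3 or from replicate 1 alone. In the fit of replicate 1 alone adult DN3 is 1 array that is assumed to vary like the other groups, so a call made there adds no support.

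**Figure D1:**
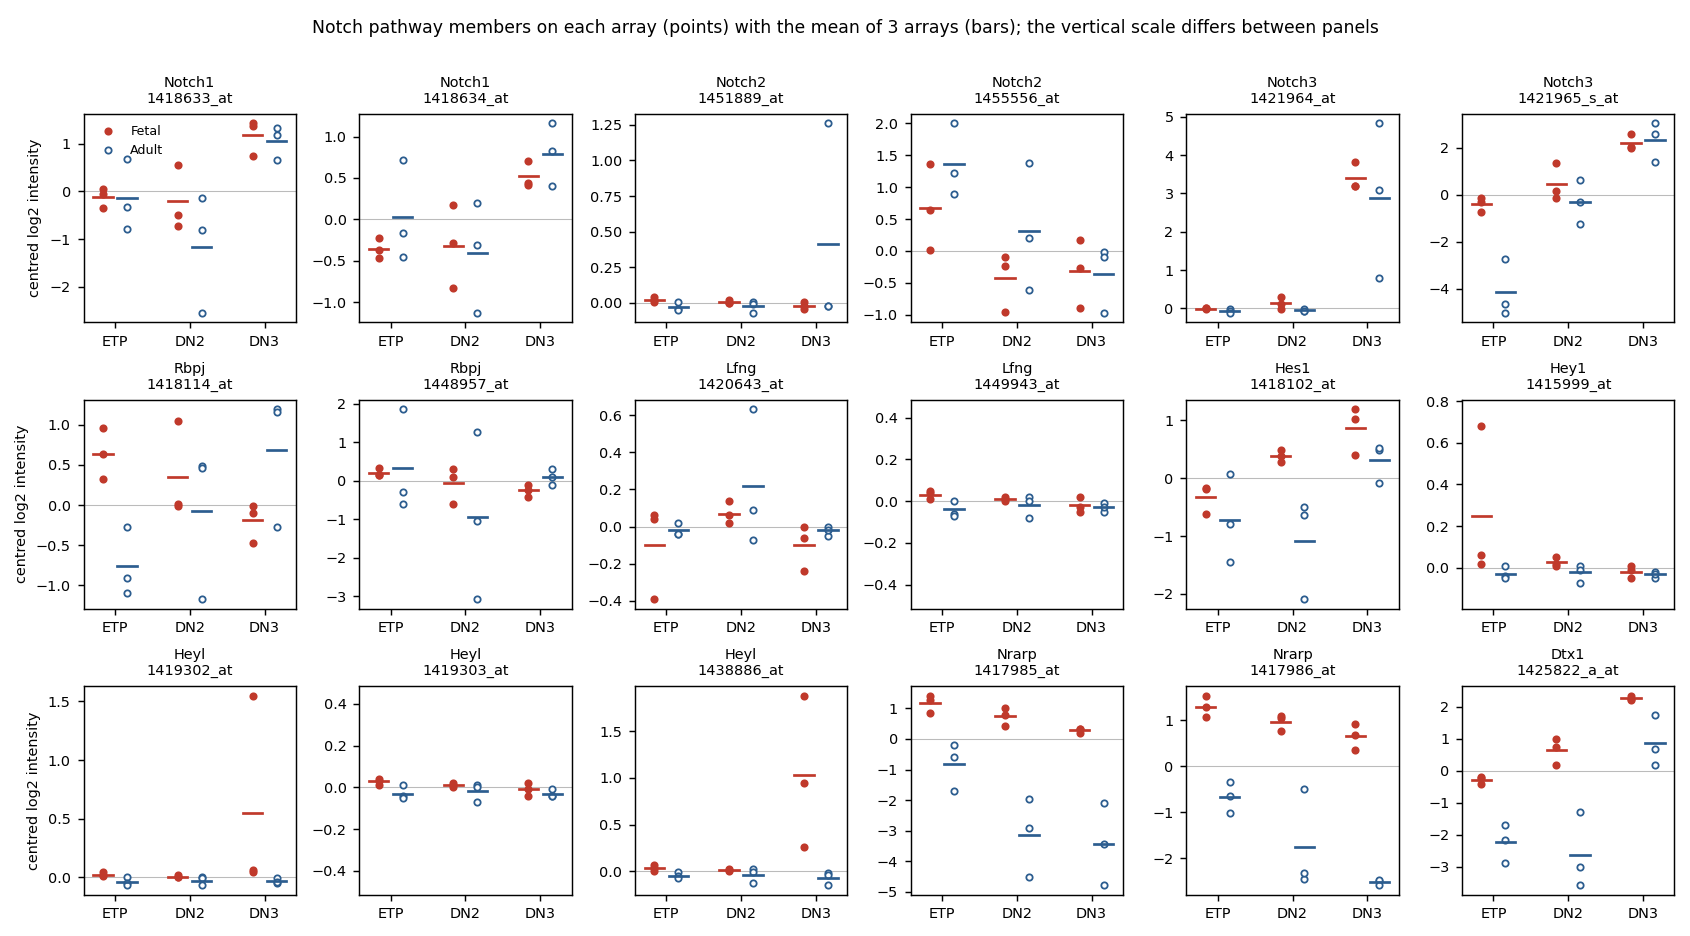
Centred log2 intensity (vertical axis, a scale of its own in each panel) of the 18 member probe sets on each array, by stage, with fetal arrays as filled points left of the open points of adult arrays and bars at the mean of 3 arrays. Both *Notch3* probe sets and *Dtx1* are highest at DN3 at both ages, and both *Nrarp* probe sets lie higher on every fetal array than on every adult array.

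Of the 18 member probe sets 8 were regulated over the 6 groups (moderated F test of limma, adjusted p under 0.05, group means at least 1.8-fold apart), beside 16.8% of all probe sets. They were 1 of 2 for *Notch1*, both for *Notch3*, both for *Nrarp*, 1 of 3 for *Heyl*, and the only ones for *Hes1* and *Dtx1*. Leaving out 1 array at a time gave 5 to 8 regulated probe sets. *Notch1*, *Notch3*, *Hes1*, *Dtx1* and *Heyl* are genes that the study itself had discussed from these arrays, so their direction is not independent evidence.

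Among the receptors, *Notch3* showed the widest differences, and *Notch1* also had its highest group means at DN3. *Notch1*, the receptor that starts the T cell programme, was measured by 2 probe sets. On 1418633_at it stood at -0.06, 0.06 and -0.34 log2 in fetal ETP, 0.56, -0.49 and -0.72 in fetal DN2, and 1.38, 0.74 and 1.43 in fetal DN3. The adult arrays gave 0.69, -0.78 and -0.33 log2 in ETP, -0.81, -0.13 and -2.55 in DN2, and 1.19, 1.33 and 0.66 in DN3. All DN3 arrays of either age were above all DN2 arrays of the same age, whereas adult DN3 and adult ETP touched, with a lowest value of 0.66 log2 in adult DN3 and a highest of 0.69 log2 in adult ETP. The probe set passed the test over the 6 groups (adjusted p = 0.0434, limma), with a span of 2.35 log2 between group means.

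No single comparison of *Notch1* was called. Adult DN3 exceeded adult DN2 by 2.22 ± 0.55 log2 on 1418633_at (limma, adjusted p = 0.0762) and by 1.20 ± 0.36 log2 on 1418634_at (adjusted p = 0.154). With the replicate number as a block, the adjusted p became 0.0465 and 0.035 (limma) and both were called. That block was a shift per replicate number shared by all 6 groups. Replicate numbers pair only some of these groups, adult DN2 with adult DN3 among them. It was therefore not a paired test of these 2 groups alone. Fetal DN3 exceeded fetal ETP by 1.30 ± 0.55 and 0.88 ± 0.36 log2 on the 2 probe sets (adjusted p = 0.257 and 0.239). Fetal and adult cells of the same stage differed by at most 0.95 ± 0.55 log2 on 1418633_at, at DN2 (adjusted p = 0.525).

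*Notch2*, a receptor best known in blood cells for marginal zone B cells, ran the other way with stage on 1455556_at. Its values were 0.64, 0.02 and 1.36 log2 in fetal ETP, -0.10, -0.96 and -0.23 in fetal DN2, and -0.26, -0.89 and 0.17 in fetal DN3. In adult cells they were 0.89, 2.00 and 1.22 log2 in ETP, -0.61, 0.20 and 1.38 in DN2, and -0.97, -0.02 and -0.10 in DN3. Adult DN3 was lower than adult ETP on this probe set without overlap of arrays, with a difference of -1.73 ± 0.51 log2 (limma, adjusted p = 0.0407). This call was lost in 12 of 24 alternatives. Among these were the omissions of any 1 adult DN3 array (without replicate 3, -1.86 log2, limma, adjusted p = 0.0694). The test over the 6 groups was not passed (adjusted p = 0.0925). Fetal DN3 was not called different from fetal ETP (adjusted p = 0.364), and its arrays overlapped with those of fetal ETP. The second probe set, 1451889_at, was flat on 17 of 18 arrays and stood at 1.26 log2 on adult DN3 replicate 1.

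*Notch3*, a receptor whose gene is switched on as thymocytes commit to the T cell lineage, was followed by 2 probe sets with unlike patterns below DN3. On 1421964_at the ETP and DN2 arrays lay between -0.12 and 0.29 log2 at both ages. The DN3 arrays stood at 3.83, 3.18 and 3.18 log2 in fetal cells and at 3.08, 4.83 and 0.78 log2 in adult cells. The low adult value belongs to replicate 3, the array with *Cd44* at -0.86 log2. Without it the difference of adult DN3 from adult DN2, which was 2.95 log2 and not called, became 4.00 log2 (limma, adjusted p = 4.18e-05). That fit leaves adult DN3 arrays at 3.08 and 4.83 log2. It pools the spread of all groups, and ETP and DN2 were flat, so p-values of this probe set do not measure the spread between DN3 arrays. With all arrays and the replicate block the difference was called at an unchanged 2.95 log2 (adjusted p = 0.0471).

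On 1421965_s_at, whose name marks possible hybridization to more than 1 transcript, *Notch3* already differed at ETP. Fetal ETP stood at -0.14, -0.31 and -0.74 log2, against -4.66, -5.04 and -2.72 log2 in adult ETP. Fetal DN2 gave 1.35, 0.14 and -0.14 log2 and adult DN2 gave -0.30, 0.62 and -1.25 log2. The DN3 arrays gave 2.59, 2.00 and 2.05 log2 in fetal and 3.05, 2.58 and 1.38 log2 in adult cells. Fetal and adult arrays were apart at ETP and overlapped at DN2 and DN3.

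By this probe set *Notch3* was called higher in fetal ETP, by 3.74 ± 0.64 log2 against adult ETP (limma, adjusted p = 0.00221), which is 13.4-fold. The same comparison at DN2 and DN3 gave 0.76 ± 0.64 and -0.12 ± 0.64 log2, neither of them called. Adult DN2 exceeded adult ETP by 3.83 ± 0.64 log2 (adjusted p = 0.00228) and adult DN3 exceeded it by 6.47 ± 0.64 log2 (adjusted p = 1.73e-05), or 7.19 log2 from replicate 1 alone. Fetal DN3 exceeded fetal ETP by 2.61 ± 0.64 log2 (adjusted p = 0.0259), a call that was lost when any 1 of the fetal ETP or fetal DN3 arrays was left out. The fetal minus adult difference fell by 3.86 ± 0.91 log2 between ETP and DN3 (adjusted p = 0.0407), where 2.49% of all probe sets were called. With the replicate block the adjusted p of that change was 0.0521, and it was also over 0.05 without 13 of the 18 arrays taken singly. The probe set 1421964_at was flat on all ETP arrays, so it could not show an age difference there.

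*Rbpj* and *Lfng* act on the receptors' signal from either end, since *Rbpj* encodes the DNA-binding partner in the nucleus and *Lfng* a sugar transferase that changes how receptors answer ligands. Neither was called in any comparison. *Rbpj* on 1418114_at stood at 0.96, 0.33 and 0.64 log2 in fetal ETP, against -0.27, -0.91 and -1.10 log2 in adult ETP. These arrays did not overlap, and the difference of 1.40 ± 0.49 log2 had an adjusted p of 0.0845 (limma). At DN3 fetal arrays gave -0.10, -0.01 and -0.47 log2 and adult arrays -0.27, 1.19 and 1.16 log2, a difference of -0.88 ± 0.49 log2 (adjusted p = 0.663). From adult DN3 replicate 1 alone this last difference was 0.08 log2. The other probe set, 1448957_at, ranged over 4.91 log2, chiefly through adult DN2 replicate 2 at -3.07 log2 and adult ETP replicate 1 at 1.85 log2, and 2 of the 3 adult groups spread more widely than any fetal group. *Lfng* ranged over 1.02 log2 on 1420643_at and 0.13 log2 on 1449943_at.

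Of the target genes, *Hes1*, a transcriptional repressor and the classical Notch target, passed the test over the 6 groups (limma, adjusted p = 0.0249) with a span of 1.95 log2. Fetal values were -0.19, -0.17 and -0.61 log2 in ETP, 0.49, 0.28 and 0.38 in DN2, and 1.03, 1.19 and 0.40 in DN3. Adult values were 0.08, -1.44 and -0.79 log2 in ETP, -0.50, -0.64 and -2.09 in DN2, and 0.49, -0.08 and 0.52 in DN3. All fetal DN2 arrays lay above all adult DN2 arrays, by 1.46 ± 0.42 log2 on average (adjusted p = 0.0772), which was not called. Adult DN3 exceeded adult DN2 by 1.39 ± 0.42 log2 (adjusted p = 0.159) and fetal DN3 exceeded fetal ETP by 1.20 ± 0.42 log2 (adjusted p = 0.144). None of its 9 comparisons was called.

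*Hey1* and *Heyl* encode repressors related to Hes1. *Hey1* was flat except for fetal ETP replicate 3 at 0.68 log2. Of the 3 *Heyl* probe sets, 1419303_at ranged over 0.11 log2 in all, and 1419302_at stayed within 0.10 log2 of it on 17 of 18 arrays, the exception being fetal DN3 replicate 1 at 1.55 log2. On 1438886_at *Heyl* stood at 0.26, 0.94 and 1.88 log2 in fetal DN3, against -0.15, -0.02 and -0.04 log2 in adult DN3. All other groups on this probe set lay between -0.13 and 0.07 log2. It was called higher in fetal than in adult DN3, by 1.09 ± 0.26 log2 (limma, adjusted p = 0.0407), and higher in fetal DN3 than in fetal ETP, by 0.99 ± 0.26 log2 (adjusted p = 0.041). Each call was lost under most of the alternatives, 19 of 24 and 18 of 23, with differences of 0.67 to 1.48 and 0.56 to 1.37 log2. From adult DN3 replicate 1 alone the difference between the ages was 1.17 log2. Within fetal DN3, the replicate with the highest value on 1419302_at had the lowest on 1438886_at.

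*Nrarp*, a small ankyrin repeat protein that Notch induces and that restrains Notch signalling in return, was higher in fetal cells at all 3 stages. On 1417986_at fetal cells stood at 1.07, 1.54 and 1.30 log2 in ETP, 0.77, 1.10 and 1.05 in DN2, and 0.35, 0.69 and 0.92 in DN3. Adult cells stood at -0.35, -0.64 and -1.02 log2 in ETP, -0.50, -2.45 and -2.33 in DN2, and -2.50, -2.47 and -2.59 in DN3. Every fetal array was above every adult array. The fetal minus adult difference was 1.97 ± 0.39 log2 at ETP (limma, adjusted p = 0.00559), 2.73 ± 0.39 log2 at DN2 (adjusted p = 0.00116) and 3.17 ± 0.39 log2 at DN3 (adjusted p = 0.000257). The change of this difference between stages was not called (adjusted p = 0.709 for the interaction), so that a wider gap at DN3 than at ETP was not established.

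The second *Nrarp* probe set, 1417985_at, gave 1.28, 1.42 and 0.85 log2 in fetal ETP, 0.79, 1.03 and 0.44 in fetal DN2, and 0.33, 0.34 and 0.19 in fetal DN3. In adult cells it gave -0.59, -1.70 and -0.19 log2 in ETP, -2.90, -1.98 and -4.51 in DN2, and -4.79, -3.45 and -2.10 in DN3. Fetal and adult arrays were again apart at each stage. The difference was 2.01 ± 0.66 log2 at ETP, where it was not called, 3.88 ± 0.66 log2 at DN2 (limma, adjusted p = 0.00416) and 3.73 ± 0.66 log2 at DN3 (adjusted p = 0.00513). From adult DN3 replicate 1 alone the DN3 differences were 3.15 and 5.08 log2 on 1417986_at and 1417985_at.

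Within adult cells *Nrarp* was lower at DN3 than at ETP, by -1.85 ± 0.39 log2 on 1417986_at (limma, adjusted p = 0.00628) and -2.62 ± 0.66 log2 on 1417985_at (adjusted p = 0.018). From adult DN3 replicate 1 alone the first was -1.83 log2 with an adjusted p of 0.0958, and the second was lost without adult ETP replicate 3 or without adult DN3 replicate 1 or 2. Fetal DN3 minus fetal ETP was -0.65 ± 0.39 and -0.90 ± 0.66 log2 on the 2 probe sets, and neither was called. *Nrarp* thus did not share the direction of *Notch3* and *Dtx1* with stage.

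*Dtx1*, the E3 ubiquitin ligase Deltex 1 and a Notch target in thymocytes, was higher at DN3 at both ages and higher in fetal than in adult cells before it. Fetal values were -0.41, -0.24 and -0.18 log2 in ETP, 0.99, 0.18 and 0.75 in DN2, and 2.35, 2.21 and 2.26 in DN3. Adult values were -2.17, -2.87 and -1.69 log2 in ETP, -3.00, -1.28 and -3.58 in DN2, and 1.73, 0.69 and 0.19 in DN3. Fetal arrays were above adult arrays at each stage without overlap. The lowest adult DN3 value belongs to replicate 3.

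The fetal minus adult difference of *Dtx1* was 1.96 ± 0.52 log2 at ETP (limma, adjusted p = 0.0273), 3.26 ± 0.52 log2 at DN2 (adjusted p = 0.00238) and 1.40 ± 0.52 log2 at DN3, where it was not called and was 0.54 log2 from adult DN3 replicate 1 alone. The ETP call was lost without adult ETP replicate 2 and without any 1 of the fetal ETP arrays. Adult DN3 exceeded adult DN2 by 3.49 ± 0.52 log2 (adjusted p = 0.00586) and adult ETP by 3.11 ± 0.52 log2 (adjusted p = 0.00116). From adult DN3 replicate 1 alone these differences were 4.35 and 3.97 log2. Fetal DN3 exceeded fetal ETP by 2.55 ± 0.52 log2 (adjusted p = 0.00729). Both DN3 against ETP calls held in every alternative run. The step from fetal ETP to fetal DN2 was 0.92 ± 0.52 log2 and not called, although the arrays did not overlap.

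**Figure D2:**
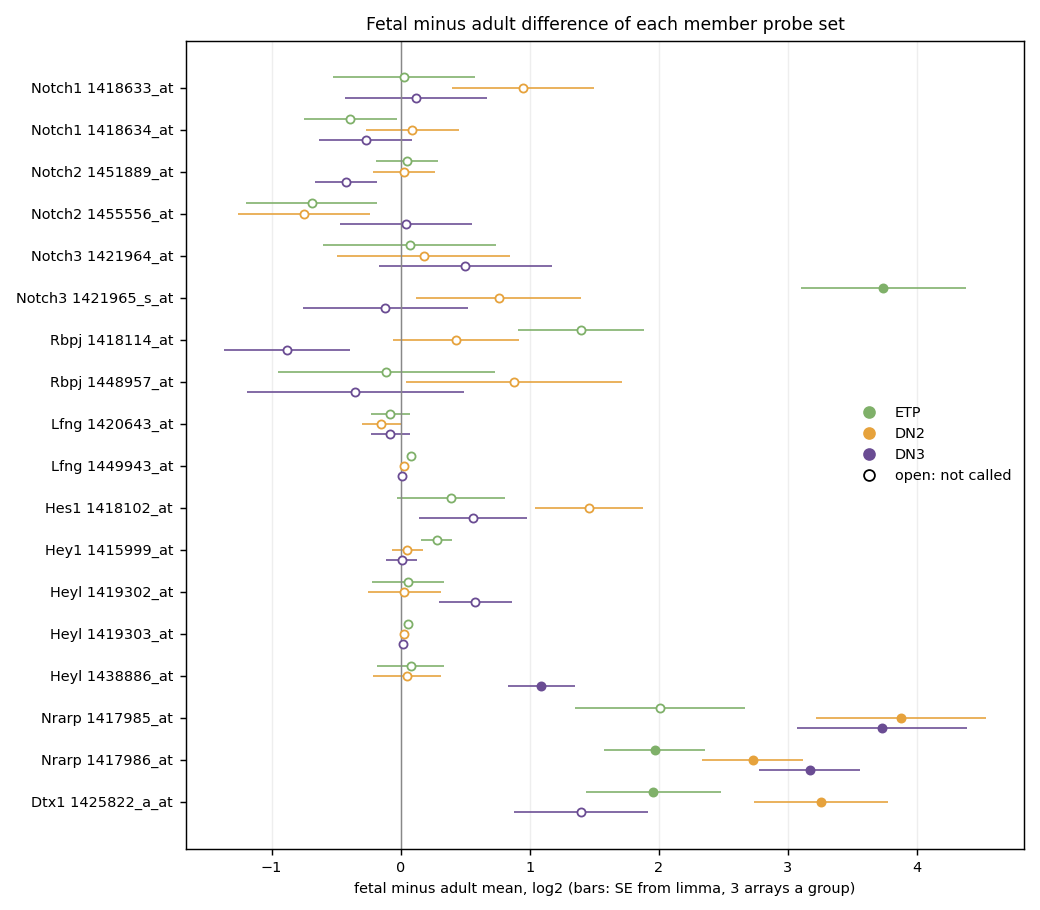
Fetal minus adult difference in log2 (horizontal axis, bars are the SE of the limma fit, 3 arrays a group) of each member probe set at ETP, DN2 and DN3, with called differences filled. *Nrarp* 1417986_at is filled at all 3 stages, *Dtx1* at ETP and DN2, and *Notch3* 1421965_s_at at ETP alone, with 3.74 log2.

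Set side by side, fetal cells were called higher than adult cells for 3 member probe sets at each stage and lower for 0. At ETP these were *Notch3* 1421965_s_at, *Nrarp* 1417986_at and *Dtx1*, beside 5.04% of all probe sets called higher and 8.49% called in either direction. At DN2 they were both *Nrarp* probe sets and *Dtx1* (1.87% higher and 3.44% in either direction among all). At DN3 they were both *Nrarp* probe sets and *Heyl* 1438886_at (1.6% and 2.77%). The median fetal minus adult difference over the 18 was 0.07, 0.14 and 0.03 log2 at ETP, DN2 and DN3, beside 0.07, 0.03 and 0.02 log2 over all probe sets. The called probe sets belonged to 4 genes. The 3 comparisons use different arrays, while comparisons between stages share them. The 3 are still not independent of each other. After subtraction of group means, same-numbered arrays correlated among the fetal groups (0.312 to 0.597) and between these and adult DN2. All comparisons also share 1 estimate of the spread per probe set.

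Between stages, adult DN3 against adult ETP had the most calls, with 3 probe sets higher (both for *Notch3*, and *Dtx1*) and 3 lower (both for *Nrarp*, and *Notch2* 1455556_at). Among all probe sets 5.56% were called higher and 5.2% lower, 10.8% together. In fetal cells 4 were called higher at DN3 than at ETP, both for *Notch3*, *Dtx1* and *Heyl* 1438886_at, and 0 lower, beside 2.69% called higher and 5.45% called in either direction among all. *Notch3* 1421964_at gave 3.40 ± 0.67 log2 in fetal cells (limma, adjusted p = 0.00587) and 2.97 ± 0.67 log2 in adult cells (adjusted p = 0.00892), or 4.03 log2 without adult DN3 replicate 3. Since this probe set was flat in ETP, both values may understate the difference. From adult DN3 replicate 1 alone, *Notch2* 1455556_at (adjusted p = 0.0841) and *Nrarp* 1417986_at were no longer called in the adult comparison, and *Notch2* 1451889_at, high on that array only, was called.

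**Figure D3:**
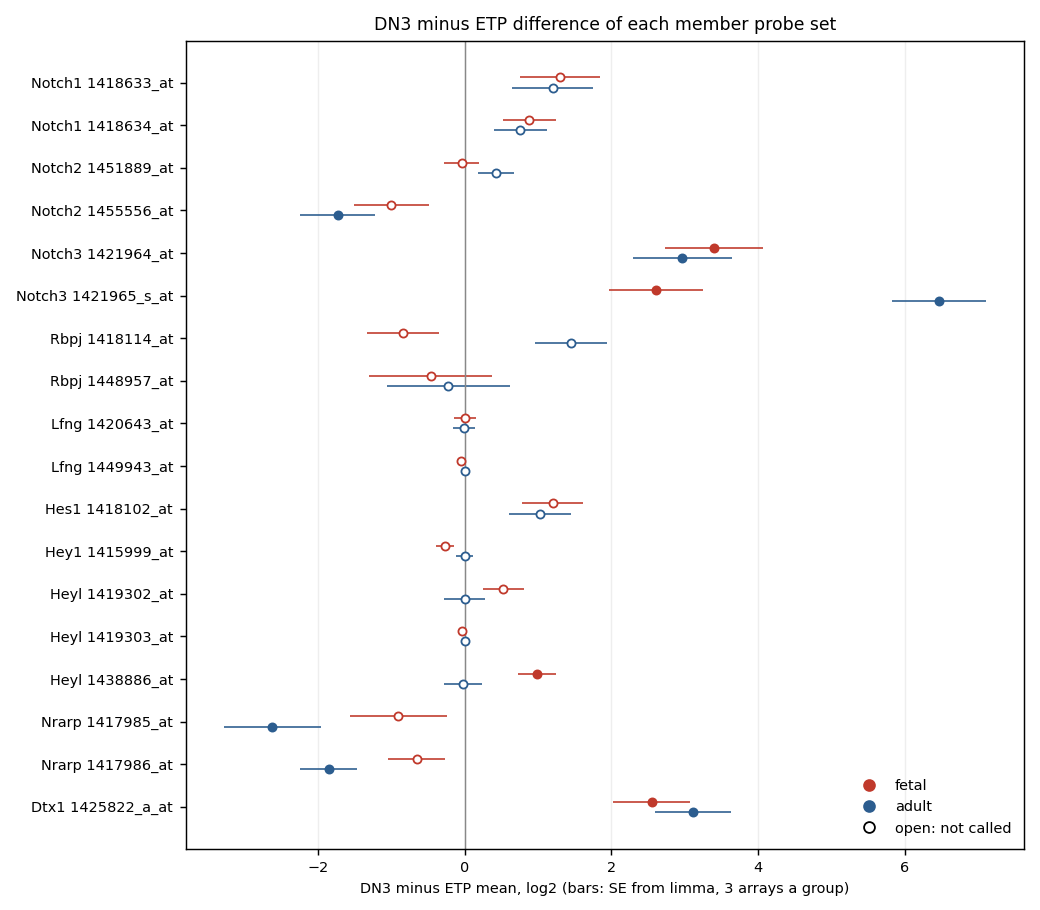
DN3 minus ETP difference in log2 (horizontal axis, bars are the SE of the limma fit, 3 arrays a group) of each member probe set in fetal and adult cells, with called differences filled. *Notch3* 1421965_s_at differs by 2.61 log2 in fetal and 6.47 log2 in adult cells, and both *Nrarp* probe sets are filled below 0 in adult cells only.

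The single steps held fewer calls. Adult DN2 against adult ETP had 1 call, *Notch3* 1421965_s_at higher (6.07% in either direction among all), and adult DN3 against adult DN2 had 1, *Dtx1* higher (0.928%). With the replicate block adult DN3 against adult DN2 had 4, *Dtx1*, both *Notch1* probe sets and *Notch3* 1421964_at. Fetal DN3 against fetal DN2 had 1 call, *Notch3* 1421964_at higher by 3.26 ± 0.67 log2 (limma, adjusted p = 0.0169, 2.47% among all), which was not called without fetal DN2 replicate 2, fetal DN2 replicate 3 or fetal DN3 replicate 1 (highest adjusted p 0.0869). Fetal DN2 against fetal ETP had 0 calls by limma, where 0.972% of all probe sets were called, and 0 of the 18 had an unadjusted p under 0.05. A stage by age interaction was called for 0 of the 18, beside 2.03% of all probe sets, and the lowest adjusted p was 0.0836, for *Notch3* 1421965_s_at.

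Probe sets of 1 gene did not always move together. The flat ones were nearly the same from gene to gene: within 0.10 log2 of *Heyl* 1419303_at on the same array lay *Lfng* 1449943_at on all 18 arrays, and *Notch2* 1451889_at and *Hey1* on 17 of 18. Even *Notch3* 1421964_at lay within it on 10 of 18 arrays, all of them ETP or DN2, and in those groups its values give no order between samples. On the whole array 5542 probe sets (24.5%) ranged over less than 0.20 log2.

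The probe sets most like each regulated member were found as those with the smallest root mean square difference over the 18 arrays among 3510 regulated probe sets of other genes. This is a description of these arrays and includes what the arrays share. For *Notch3* 1421964_at they were *Itgb4* (0.60 log2), *Lrig1* (0.60) and *Tmprss4* (0.63), and for 1421965_s_at *Mpzl2* (0.79), *Cdh1* (0.92) and *Rgcc* (0.93). For *Dtx1* they were *Papss2* (0.75 log2), *Slfn2* (0.80) and *Cdc42ep4* (0.85). For *Nrarp* they were *Tnni2* (0.53 log2), *Bex4* (0.60) and *Zcchc3* (0.75) on 1417986_at. *Notch1* and *Hes1* were each other's nearest member, 0.61 log2 apart, and *Galnt2* was among the 3 nearest of both (0.54 log2 from *Notch1* and 0.47 log2 from *Hes1*). The nearest member of *Nrarp* 1417986_at was 1.40 log2 away, that of *Dtx1* 1.19 log2.

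The rest of the pathway was followed with a list of 73 other genes by role, of which 62 were measured. No ligand (7 measured), no sugar transferase (5), no ubiquitin ligase or endocytosis gene (11), no other Hes or Hey gene (6) and not *Notch4* was called in any of the 9 comparisons. In the fetal against adult comparisons 2 genes were higher and 3 lower at ETP (8.06% of 62), 1 and 1 at DN2 (3.23%), and 2 and 1 at DN3 (4.84%). From ETP to DN3, 5 were higher and 2 lower in fetal cells (11.3%), and 5 were higher and 4 lower in adult cells (9 of 62). The higher genes of both ages include *Il2ra*, which encodes the sorting marker CD25, and *Ptcra*, used above to check the stages. The sort fixed the direction of *Il2ra* and *Ptcra* was taken as a DN3 gene, so neither is a finding about the pathway. Over all probe sets the shares called in these 5 comparisons were 8.49%, 3.44%, 2.77%, 5.45% and 10.8%. The 2 kinds of share are not strictly alike. For the 33 pathway genes with several probe sets, the one that varied most was preferred, which favours calls, whereas the share over all includes flat probe sets.

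Among receptor cleavage genes (7 measured), *Furin*, the protease that makes the first cut of the receptor on its way to the surface, was called lower in fetal ETP (-1.15 ± 0.26 log2 against adult ETP, limma, adjusted p = 0.0128). It stood at 0.19, 0.04 and 0.01 log2 in fetal ETP, against 0.90, 1.58 and 1.20 log2 in adult ETP, and adult DN3 was lower than adult ETP by -1.42 ± 0.26 log2 (adjusted p = 0.00243). Among the nuclear partners (16 measured) *Ctbp2*, a corepressor, had the most calls. It stood at 2.22, 2.36 and 1.72 log2 in fetal ETP, 1.60, 1.84 and 1.46 in fetal DN2 and -0.43, -0.29 and -0.54 in fetal DN3. Adult arrays gave 1.68, 0.92 and 0.29 log2 in ETP, -1.45, -0.79 and -1.96 in DN2, and -3.56, -3.71 and -1.60 in DN3. *Ctbp2* was thus higher in fetal cells at DN2 (3.03 ± 0.49 log2, adjusted p = 0.00297) and at DN3 (2.53 ± 0.49 log2, adjusted p = 0.0107), and lower at DN3 than at ETP at both ages (-2.52 ± 0.49 log2 in fetal and -3.92 ± 0.49 log2 in adult cells). Without adult DN3 replicate 3, the highest of that group, the DN3 difference between the ages was 3.21 log2 and the adult change -4.60 log2. Without adult DN3 replicate 1 or replicate 2 that age difference was not called (limma, highest adjusted p 0.0596). Its lowest value over all alternatives was 2.16 log2. The direction of *Ctbp2* in age and stage was that of *Nrarp*.

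*Tle3*, a corepressor of the Groucho family, had lower values in fetal ETP and DN2 cells than in the adult ones, by -1.14 ± 0.24 and -1.19 ± 0.24 log2 (limma, adjusted p = 0.00801 and 0.0127). With stage *Tle3* was called higher in fetal DN3 than in fetal ETP, by 0.92 ± 0.24 log2 (limma, adjusted p = 0.036). That call was lost in 8 of 22 alternatives. *Tle1*, of the same family, was lower at DN3 than at ETP by -1.56 ± 0.41 log2 in fetal and -1.45 ± 0.41 log2 in adult cells. The fetal call was lost in 9 of 22 alternatives, among them without any 1 of the fetal ETP or fetal DN3 arrays. The adult call was lost in 5 of 23, and the adult difference was -1.96 log2 from adult DN3 replicate 1 alone. *Tle4*, also of that family, was called lower at DN3 in adult cells (-0.94 ± 0.28 log2 against ETP, adjusted p = 0.0445), which was not called in 17 of 23 alternatives. *Crebbp*, a histone acetyltransferase, was lower in fetal ETP against adult ETP, by -1.93 ± 0.39 log2 (adjusted p = 0.00658).

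Among 9 other targets in T cells, *Gata3*, a factor needed for T cell commitment, was higher in fetal ETP, with 0.32, 0.13 and -0.71 log2, against -0.68, -2.09 and -2.05 log2 in adult ETP. The difference was 1.52 ± 0.41 log2 (limma, adjusted p = 0.032), although the lowest fetal array lay just under the highest adult array. This call was lost without adult ETP replicate 2 or 3 and without fetal ETP replicate 1 or 2 (highest adjusted p 0.126). *Igf1r*, a growth factor receptor, stood at 1.29, 1.00 and 2.01 log2 in fetal DN3, against -0.25, -0.17 and -0.35 log2 in adult DN3, and the difference of 1.69 ± 0.27 log2 was called (adjusted p = 0.00224). *Ccnd3*, the cyclin D3 gene, was higher in fetal ETP against adult ETP, by 1.20 ± 0.29 log2 (adjusted p = 0.0182) and lower in fetal than in adult DN3 by -1.30 ± 0.29 log2 (adjusted p = 0.0265). That change of its age difference, -2.51 ± 0.41 log2, was itself called (adjusted p = 0.00425). The ETP call of *Ccnd3* was lost under the same omissions as that of *Gata3* (highest adjusted p 0.0787). The DN3 difference of *Ccnd3* was not called in 5 of 23 alternatives, among them without adult DN3 replicate 3 (-1.19 log2, adjusted p = 0.0963). It was -1.08 log2 from replicate 1 alone. The change of the age difference of *Ccnd3* was still called without adult DN3 replicate 3. *Il7r*, which encodes the receptor for interleukin 7, was higher at DN3 than at ETP by 1.55 ± 0.33 log2 in fetal cells (adjusted p = 0.0109) and by 2.46 ± 0.33 log2 in adult ones (adjusted p = 0.000235). Its adult DN2 arrays already exceeded ETP by 2.70 ± 0.33 log2 on average.

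**Figure D4:**
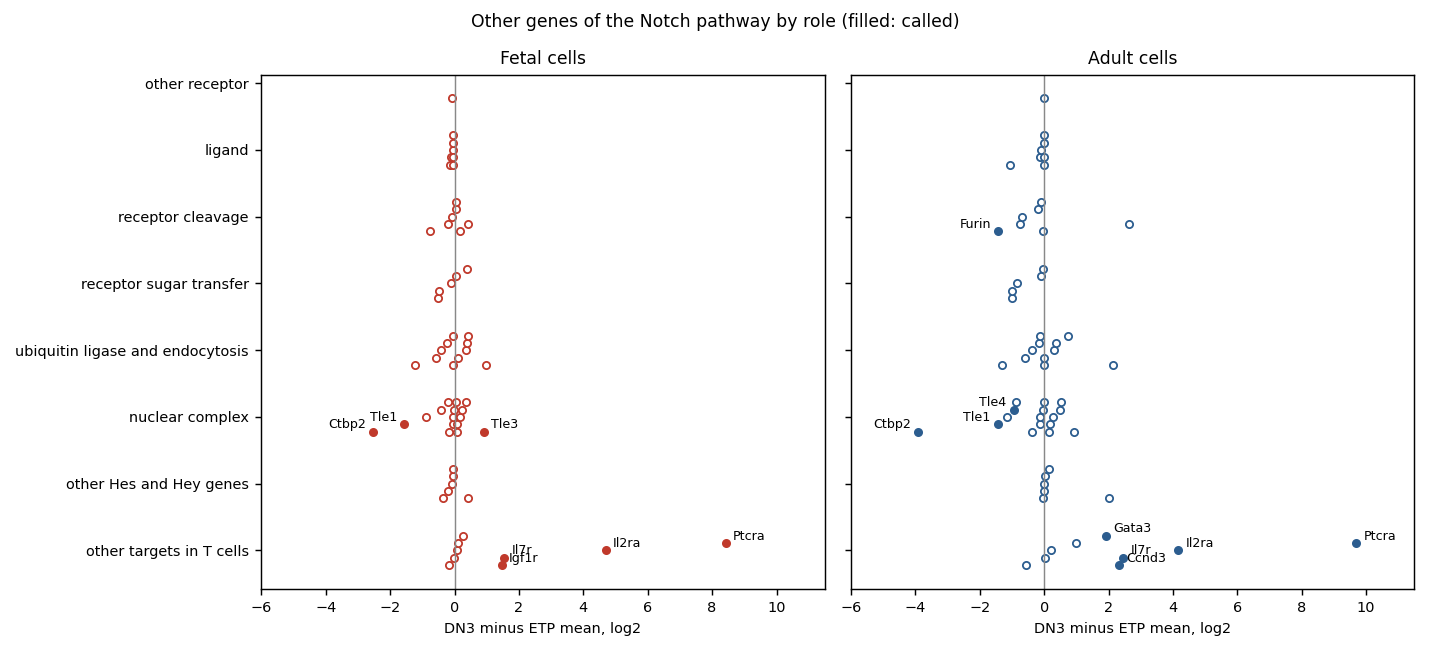
DN3 minus ETP difference in log2 (horizontal axis) of the 62 other pathway genes by role, with fetal cells left of adult cells and called genes filled and named. Named genes lie in the nuclear complex, among other T cell targets and, in adult cells, with *Furin* among the cleavage genes, and the ligand row has none.

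Markers of other cells moved with some of these groups. Of the 6 myeloid and dendritic markers 3 were lower and 0 higher in fetal than in adult ETP, and their mean on an array was 2.50 to 2.64 log2 in fetal ETP, against 3.20 to 3.97 log2 in adult ETP. In DN3 the mean was -1.71 to -1.42 log2 in fetal and -1.18 to 0.05 log2 in adult cells. Of 5 measured natural killer and innate lymphoid markers the mean was 1.19 to 1.73 log2 in fetal ETP, against -0.98 to -0.15 log2 in adult ETP. Of these 5 only *Gzma* was called, by 9.15 ± 0.69 log2, and the median difference was 0.38 log2. The mean of 5 erythroid markers, *Hbb-y* among them, was 0.04 to 1.82 log2 in fetal ETP, -0.05 to 1.97 log2 in fetal DN3 and -0.09 to 0.01 log2 in all adult arrays. Of these 5, 0 were called between the ages at any stage. Their median fetal minus adult difference was 0.21, 0.05 and 0.08 log2 at ETP, DN2 and DN3. The part of these other cells in the differences at ETP was not tested. Of 7 measured thymic epithelial and 8 endothelial markers, *Krt8*, *Foxn1*, *Cldn3*, *Cdh5*, *Kdr*, *Tie1* and *Emcn* were flat, whereas *Krt18* was called higher in fetal cells at each stage, *Epcam* rose with stage at both ages, and *Esam* stood at 5.95 to 6.12 log2 in fetal ETP, against 0.29 to 1.78 log2 in adult ETP. *Egfl7*, the other endothelial marker called, was lower in fetal ETP, by -1.75 ± 0.25 log2 against adult ETP. In replicate 1 of fetal DN2 and DN3, where *Hbb-y* was near 0, *Nrarp* 1417986_at stood at 0.77 and 0.35 log2, above all adult arrays of those stages (highest -0.50 and -2.47 log2). These were also the lowest fetal values of those stages on this probe set. Fetal ETP has no such array, since *Hbb-y* was at 5.31 log2 in its replicate 1. The part of erythroid cells in the *Nrarp* differences was not tested.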

How the data were processed

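Gene expression of sorted ETP, DN2 and DN3 thymocytes of fetal and adult C57BL/6 mice was measured on 18 arrays, 3 for each of 6 groups, and 0 columns of the table were left without a sample. Per the methods, RNA was amplified in 2 cycles and the authors computed log2 intensities by GCRMA in GeneSpring GX, which were deposited. As tested on the file, each probe set was centred on its median over the 18 arrays (largest remaining median 5e-07), 0 values were missing and the widest span was 12.95 log2. The values therefore hold differences and no levels, so low values were left in and no level was compared between genes. Precision is set by the 3 arrays a group.

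The values were fitted with limma 3.58.1 in R 4.3.3, with 1 mean per group, to all 22626 probe sets, and p-values were adjusted over all of them. The moderated SD had a median of 0.229 log2 (prior of 0.971 degrees of freedom). Comparisons were fetal against adult cells at each stage, stages within an age, and the change of the age difference between stages. The fit was tested on simulated data. Probe sets were named from the platform annotation, in which 20380 probe sets had 1 symbol, 691 several and 1555 none. All member probe sets were described, and each pathway gene with a call was named, with 1 probe set per gene. The members and lists were chosen with earlier results of these data known.

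Replicate numbers run 1 to 3 per group in the labels. After subtraction of group means, same-numbered arrays correlated over the limit of 0.1 in all 3 pairs within each combination of fetal groups (0.312 to 0.597), of adult DN2 with each fetal group (0.125 to 0.374) and of adult DN3 with adult DN2 (0.119 to 0.424), and in no other combination. By this the numbers pair those groups only. Alternatives were each array centred on its median, array weights (estimated gene by gene, since the default estimate did not converge), robust moderation, the replicate number as a block, the arrays of 2 groups alone, other fold limits, and each array left out. The methods' own one-way test over the 6 groups was also run. Adult DN3 from replicate 1 alone was added after the data were seen. Promoter windows were read from RefSeq (GRCm38.p6).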

Additional observations from a re-analysis of the deposited data

Results flagged for a closer look

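One result was singled out because an effect differed between the ages by its own test. For *Notch3* 1421965_s_at the fetal minus adult difference changed by -3.86 ± 0.91 log2 between ETP and DN3 (limma, adjusted p = 0.0407). At ETP the fetal arrays stood at -0.14, -0.31 and -0.74 log2, against -4.66, -5.04 and -2.72 log2 in adult cells. At DN3 they stood at 2.59, 2.00 and 2.05 log2, against 3.05, 2.58 and 1.38 log2 in adult cells. The interaction over all 3 stages had an adjusted p of 0.0836 and was not called. The change ranged between -4.58 and -3.41 log2 over 23 alternatives, with adjusted p-values of 0.0076 to 0.102, and was not called in 14 of them. The other *Notch3* probe set, 1421964_at, was flat on all ETP arrays and could not show such a change. Groups of 3 arrays are too small for a test of single outlying arrays, and none was made.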

How the results depend on the processing

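Of 23 called differences of member probe sets, 23 held with each array centred on its median, 23 with robust moderation, 22 with the replicate block and 21 with array weights, but 11 of 22 when only the arrays of the 2 groups were fitted, where fewer arrays estimate the spread. The block ended 1 call (*Notch3* 1421965_s_at, the change of the age difference between ETP and DN3) and changed no other count by over 1.5 times than adult DN3 against adult DN2, with 4 calls in place of 1. With each array left out in turn, the number regulated was 5 to 8 (8 with all arrays), and a stage by age interaction was called for 0 to 1 (0 with all). The calls were 2 to 4 for fetal against adult ETP, 3 to 4 at DN2 and 2 to 3 at DN3 (3 each with all arrays). They were 1 to 2 for adult DN2 against adult ETP, 1 to 3 for adult DN3 against adult DN2, 4 to 7 for adult DN3 against adult ETP, 0 to 2 for fetal DN3 against fetal DN2 and 2 to 4 for fetal DN3 against fetal ETP. For fetal DN2 against fetal ETP they were 0 each time. Array weights gave 3 interactions, 5 calls for fetal against adult ETP, 6 for fetal against adult DN3, 2 for adult DN2 against adult ETP, 6 for fetal DN3 against fetal DN2 and 7 for fetal DN3 against fetal ETP. With the arrays of 2 groups alone there were 0 calls for fetal against adult DN2, 1 for fetal against adult DN3, 0 for adult DN2 against adult ETP, 0 for adult DN3 against adult DN2, 3 for adult DN3 against adult ETP and 2 for fetal DN3 against fetal DN2. Centring gave 2 for fetal DN3 against fetal DN2. From adult DN3 replicate 1 alone there was 1 interaction and there were 3 calls for adult DN3 against adult DN2, with *Notch2* 1451889_at and *Notch3* 1421964_at added. There adult DN3 is 1 array, assumed to vary like the other groups. Among the 73 differences of at least 0.85 log2, which alone were followed singly, signs turned for *Rbpj*, in differences that were not called. Without adult DN2 replicate 2, 1448957_at gave -0.18 log2 for fetal against adult DN2, -0.01 for adult DN3 against adult DN2 and -0.07 for the change of the age difference between ETP and DN2, and the highest values without 1 array were 1.99, 2.16 and 2.10 log2. From adult DN3 replicate 1 alone 1418114_at gave 0.08 log2 for fetal against adult DN3. The cause was not tested. Fold limits of 1.5 and 2 changed none of these counts by over 1.5 times.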
